A study of Mus musculus with 4 samples.

Results

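Transcripts of respiratory complex I were compared between the hippocampus of control mice and of PND mice, the mice that model perioperative neurocognitive disorder. A gene was included when the count table gave it the biotype protein_coding and a symbol that starts with Nduf. This rule took 46 of the 29300 genes listed, and it did not use any measured value. Of these, 38 carry one of the letters a, b, c, s and v, and 8 are assembly factors (Ndufaf). All 46 genes passed the filter on low counts and were tested.

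The libraries came from 2 control mice and 2 PND mice, each mouse giving 1 library of hippocampal RNA at day 1. The animals were wild-type C57BL/6 males, 7 to 8 months of age. Control mice (sham) received isoflurane anesthesia and the analgesic tramadol without an operation, and PND mice received the same drugs and a tibial fracture with an intramedullary nail. Thus both groups carried the anesthesia, and the comparison is of the operation. The libraries held 15763432 to 18573386 counts. Levels are given as CPM (counts per 1e+06 counts of the library, after TMM scaling), and fold changes are PND over control on the log2 scale with their standard error (SE).

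Complex I takes electrons from NADH, passes them through a flavin and a chain of iron-sulfur clusters to ubiquinone, and pumps protons across the inner mitochondrial membrane. Its N module oxidizes NADH, its Q module reduces ubiquinone, and the proximal and distal parts of its membrane arm carry the proton pumps. The pumps and the rest of the core of the membrane arm are encoded by the mitochondrial genome, whereas the other subunits are made in the cytosol and imported, and assembly factors join the modules without staying in the finished enzyme. The letters follow old fractions of the enzyme, with s for iron-sulfur and v for flavoprotein, so 1 letter can span several modules. Neurons draw most of their ATP from the respiratory chain that this enzyme feeds.

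The hippocampal markers and neuronal markers were detected in every library. Summed over 6 hippocampal markers, the level was 814 to 946 CPM in control mice and 908 to 1003 CPM in PND mice. Single markers moved both ways, since Fibcd1 of the CA1 field was lower and Neurod6 and Zbtb20 were higher, with log2 fold changes of -0.64, 0.53 and 0.44. Likewise 1 of 5 neuronal markers was lower and 1 higher, 1 of 5 astrocyte markers was lower and 2 higher, and 1 of 5 microglial markers was higher, as was 1 of 4 endothelial markers. Of 4 RNAs that stay in the nucleus 1 was lower and 1 higher, and 1 of 4 tested neutrophil markers was lower. Beside these counts, 12.8% of all genes tested were lower and 13.1% higher. In a fit with offsets for transcript length and GC content, described below, 1 neuronal marker was lower and 1 higher, and no other marker was called. In that fit 1.73% of all genes were lower and 0.694% higher. Fibcd1, Neurod6 and Zbtb20 then had log2 fold changes of -0.35, 0.13 and 0.07. Markers of the choroid plexus, a tissue that borders the hippocampus, differed widely between mice, with 4 genes summing to 126 and 5382 CPM in the control mice and 2019 and 3428 CPM in the PND mice. The 5 oligodendrocyte markers summed to 5330 and 4572 CPM in the control mice and 5067 and 3276 CPM in the PND mice. None of these 9 choroid plexus and oligodendrocyte genes passed the test. The part of all these markers in the results below was not tested. In this bulk tissue, fewer cells of a type and less RNA per cell cannot be told apart.

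More complex I genes were lower than higher in PND mice. At an adjusted p under 0.05 in edgeR's quasi-likelihood test, 23 of the 46 genes were lower, which is 50% of them, against 12.8% of the 17144 genes tested. In the other direction 5 genes were higher, or 10.9%, against 13.1% of all genes. The median log2 fold change of the 46 genes was -0.33, with a range from -0.75 to 0.79, and the median of all genes tested was 0.01. Leaving out the first control mouse gave 21 lower and 2 higher genes, leaving out the second gave 16 and 1, leaving out the first PND mouse gave 25 and 3, and leaving out the second gave 16 and 3.

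Many of these falls were small. Genes with a fold change of at most 0.67 or at least 1.5 in addition to the adjusted p are called DEGs here. By this definition 8 genes (17.4%) were lower against 2.25% of all genes, and 3 genes (6.52%) were higher against 6.75% of all genes. Leaving out the first control mouse gave 13 lower DEGs, and leaving out the second gave 4 lower and 1 higher DEGs. These lower DEGs are the complex I genes that the study picked from the same libraries, so their falls here are no independent evidence of a direction. The study also measured these genes by qPCR in hippocampal RNA and reported significant decreases in PND mice for all of them. Those qPCR values were not used here. Among the other 38 genes, 15 were lower and 5 were higher, with a median log2 fold change of -0.26. Of the lower DEGs, Ndufs6, Ndufa2, Ndufb8 and Ndufb9 overlap exons of another gene by 30 to 201 nt, so their counts could be split or shared. The 24 complex I genes with no overlap and at most 10% shared sequence held 11 lower genes, 3 higher genes and 4 lower DEGs, and their median was -0.28.

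A similar split was seen in the individual mice. Both PND mice lay below both control mice in 33 of the 46 genes, whereas this was seen in 32.2% of all genes. Both PND mice lay above both control mice in 8 of the 46 genes, compared with 33.2% of all genes, and the groups overlapped in the other 5. Summed over the 46 genes, the level was 2669 and 2810 CPM in the control mice and 2270 and 2159 CPM in the PND mice. Therefore the sums of the 2 groups did not overlap either.

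**Figure D1:**
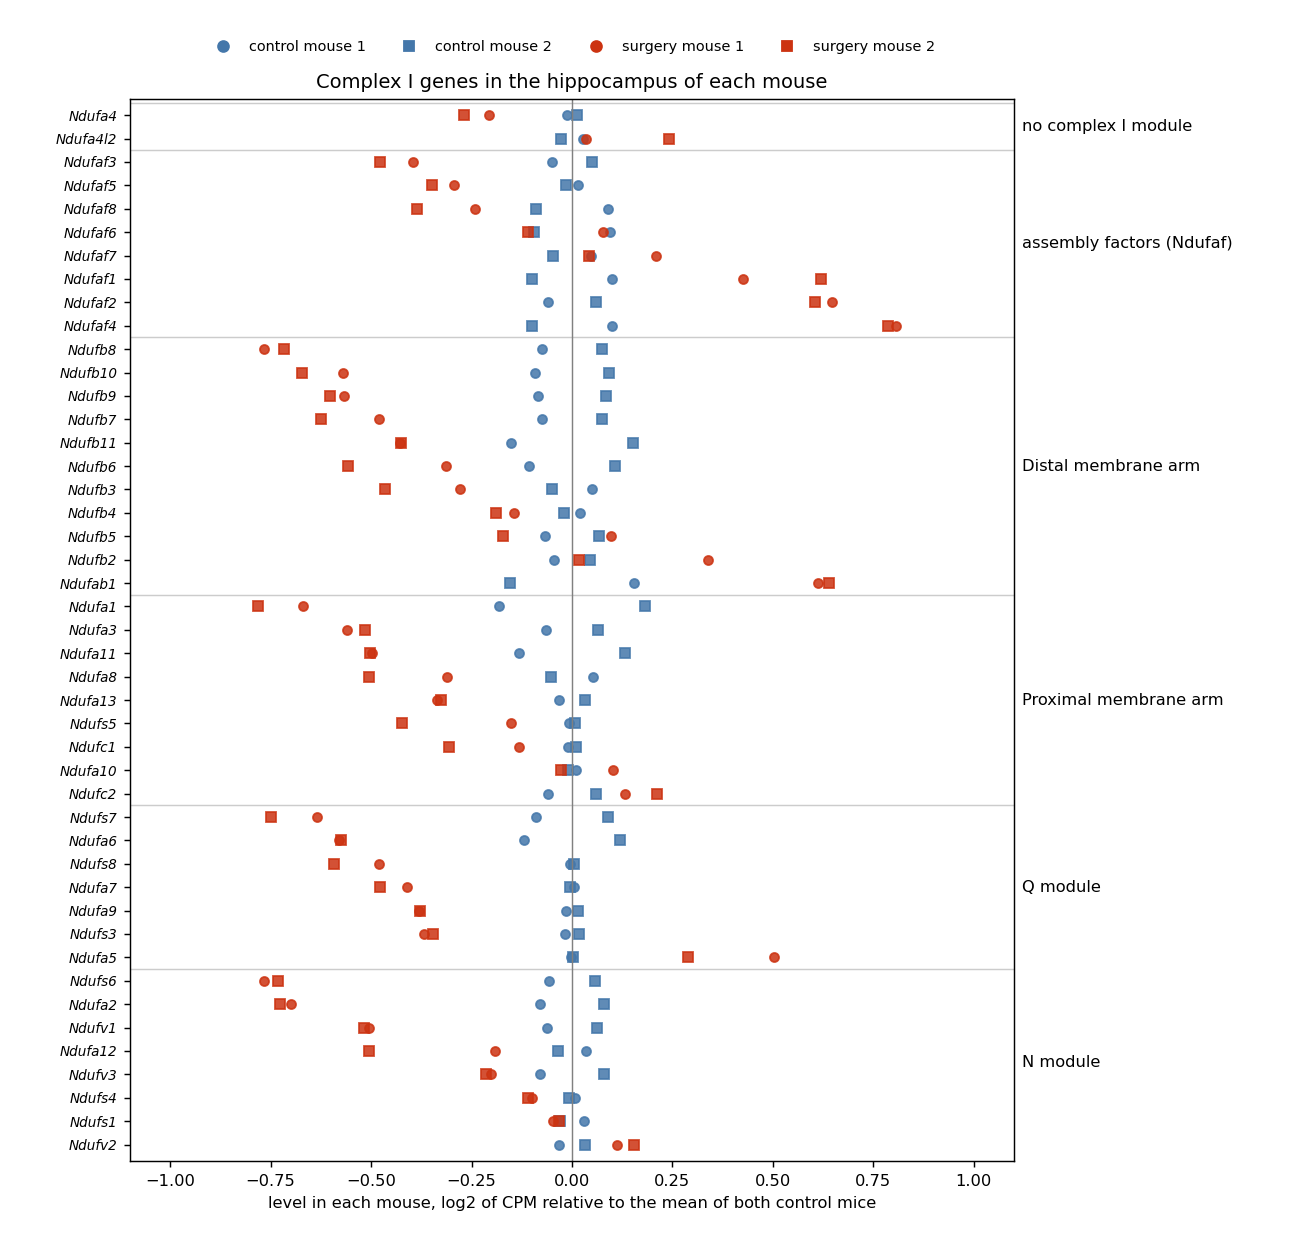
Level of each named complex I gene in each mouse, as the log2 of CPM relative to the mean of both control mice (x axis), with genes ordered by fold change within each module (y axis). Blue points are the 2 control mice and red points the 2 PND (surgery) mice. The red points lie left of the blue points in most genes and right of them in 8.

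In the N module, the part that oxidizes NADH, 3 of 8 genes were lower and none was higher, with a median log2 fold change of -0.28 that was -0.16 without the genes that overlap others or share sequence. With length and GC offsets 2 genes were lower. For this module and the next ones, the shares of all genes were 12.8% lower and 13.1% higher. With the offsets these shares were 1.73% and 0.694%. Ndufs6, a zinc-binding accessory subunit (ENSMUSG00000021606, chr13:73319838-73328542, minus strand, mm10), had 29.3 and 31.7 CPM in the control mice and 17.9 and 18.4 CPM in the PND mice. Ndufs6 was at 59.5% of its control level, the lowest of all 46 genes with TMM scaling alone (log2 fold change -0.75 ± 0.10 SE, edgeR adjusted p = 0.0056). With the length and GC offsets Ndufa1, at -0.93, and Ndufb8, at -0.88, lay below Ndufs6, at -0.82. Ndufa2, an accessory subunit with a thioredoxin-like fold, had 42.6 and 47.6 CPM in the control mice and 27.7 and 27.2 CPM in the PND mice. Its log2 fold change was -0.72 ± 0.093 SE (edgeR adjusted p = 0.0053), and again the PND mice lay well below the control mice.

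The N module holds the flavin and the first iron-sulfur clusters. Ndufv1, which binds NADH and the flavin, had 160.6 and 175.3 CPM in the control mice and 118.2 and 117.3 CPM in the PND mice (log2 fold change -0.51 ± 0.068 SE, edgeR adjusted p = 0.0054). Its partner Ndufv2, which holds an iron-sulfur cluster, had 81.7 and 85.5 CPM in the control mice and 90.3 and 93.03 CPM in the PND mice, and it did not pass the test (log2 fold change 0.13 ± 0.067 SE, edgeR adjusted p = 0.19). Ndufs1, the large iron-sulfur subunit of the same module, had 108.7 and 104.2 CPM against 103.0 and 104.0 CPM (log2 fold change -0.04 ± 0.063 SE, edgeR adjusted p = 0.69). Thus of the 3 core genes of this module only Ndufv1 passed the test. With the offsets none of them passed it, and their log2 fold changes were close together, with -0.28 for Ndufv1, -0.28 for Ndufv2 and -0.27 for Ndufs1. Ndufa12, Ndufv3 and Ndufs4 had log2 fold changes between -0.34 and -0.10 and did not pass the test.

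In the Q module, 7 of 8 genes were lower and 1 was higher, with a median log2 fold change of -0.41. With the length and GC offsets 2 of the 8 were lower and none was higher. Ndufs7, a core subunit that holds the last iron-sulfur cluster before ubiquinone (ENSMUSG00000020153, chr10:80249121-80256794, plus strand), had 88.2 and 99.9 CPM in the control mice and 60.5 and 55.8 CPM in the PND mice. Its log2 fold change was -0.69 ± 0.088 SE (edgeR adjusted p = 0.0051). Its core partner Ndufs8, which carries a pair of iron-sulfur clusters, had 65.7 and 66.1 CPM in the control mice and 47.2 and 43.7 CPM in the PND mice (log2 fold change -0.54 ± 0.077 SE, edgeR adjusted p = 0.0063). In both genes the PND mice were clearly separated from the control mice.

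Further genes of the module were lower too. Ndufs3, another core subunit, had 97.0 and 99.2 CPM in the control mice and 76.1 and 77.2 CPM in the PND mice (log2 fold change -0.36 ± 0.064 SE, edgeR adjusted p = 0.011). Among the accessory subunits, Ndufa6, a member of the LYR family of proteins, had 64.2 and 75.7 CPM in the control mice and 46.7 and 46.8 CPM in the PND mice (log2 fold change -0.58 ± 0.097 SE, edgeR adjusted p = 0.0087). Ndufa7 and Ndufa9, accessory subunits of the same module, were lower as well, by smaller folds. The exception was Ndufa5, another accessory subunit, which had 30.01 and 30.15 CPM in the control mice and 42.6 and 36.7 CPM in the PND mice (log2 fold change 0.40 ± 0.10 SE, edgeR adjusted p = 0.032).

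In the proximal membrane arm, 5 of 9 genes were lower and none was higher, with a median log2 fold change of -0.33. With the length and GC offsets only Ndufa1 of this arm was called, and without the genes that overlap others or share sequence the median was -0.22. Ndufa1, a small membrane subunit encoded on the X chromosome (ENSMUSG00000016427, chrX:37187588-37191163, minus strand), had 28.5 and 36.7 CPM in the control mice and 20.3 and 18.8 CPM in the PND mice. Its log2 fold change was -0.74 ± 0.14 SE (edgeR adjusted p = 0.014), and relative to their mean its control mice differed more from each other than those of the other lower DEGs. Ndufa3, Ndufa11, Ndufa8 and Ndufa13 were also lower, with log2 fold changes from -0.54 to -0.33. Ndufa13, known also as the cell-death regulator Grim19, overlaps the gene Tssk6 by 375 nt and shares 25.6% of its 75 nt windows with other transcripts.

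Both genes of letter c lie in this arm and moved apart without passing the test. Ndufc1 had 18.3 and 18.6 CPM in the control mice and 16.9 and 14.9 CPM in the PND mice (log2 fold change -0.22 ± 0.12 SE, edgeR adjusted p = 0.23). Ndufc2 had 30.7 and 33.3 CPM in the control mice and 35.0 and 37.0 CPM in the PND mice (log2 fold change 0.17 ± 0.092 SE, edgeR adjusted p = 0.22). The remaining genes of this arm, Ndufs5 and Ndufa10, had log2 fold changes of -0.28 and 0.04 and did not pass the test.

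In the distal membrane arm, 6 of 11 genes were lower and 1 was higher, with a median log2 fold change of -0.44, and with the length and GC offsets 4 were lower and none was higher. Ndufb8, a subunit commonly used as a marker of assembled complex I (ENSMUSG00000025204, chr19:44548572-44555440, minus strand), had 62.5 and 69.4 CPM in the control mice and 38.7 and 40.1 CPM in the PND mice (log2 fold change -0.74 ± 0.085 SE, edgeR adjusted p = 0.0046). Ndufb10 had 109.4 and 124.1 CPM in the control mice and 78.5 and 73.2 CPM in the PND mice (log2 fold change -0.62 ± 0.085 SE, edgeR adjusted p = 0.0057). Ndufb9, a LYR protein like Ndufa6, had 141.9 and 159.5 CPM in the control mice and 101.6 and 99.1 CPM in the PND mice (log2 fold change -0.59 ± 0.076 SE, edgeR adjusted p = 0.0053). In all of these accessory subunits the PND mice lay below the control mice, and Ndufb7, Ndufb11 and Ndufb3 were lower with log2 fold changes from -0.55 to -0.37.

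Ndufb6, Ndufb4, Ndufb5 and Ndufb2 did not pass the test. Ndufb6 had the same log2 fold change as Ndufb11, -0.44, and both PND mice lay below both control mice, but its edgeR adjusted p was 0.057. At the other end, Ndufb2 had 12.5 and 13.4 CPM in the control mice and 16.4 and 13.1 CPM in the PND mice (log2 fold change 0.18 ± 0.15 SE, edgeR adjusted p = 0.42). Ndufab1 encodes the mitochondrial acyl carrier protein, which is a subunit of complex I and also serves fatty acid synthesis in the mitochondrion. It had 14.7 and 11.9 CPM in the control mice and 20.2 and 20.6 CPM in the PND mice (log2 fold change 0.62 ± 0.14 SE, edgeR adjusted p = 0.022). Ndufab1 shares 8.11% of its windows with other transcripts and overlaps an opposite-strand gene by 269 nt, so some of its counts may belong elsewhere. Its processed pseudogene Ndufab1-ps, which the rule left out, did not pass the test (log2 fold change 0.17 ± 0.29 SE, edgeR adjusted p = 0.71).

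**Figure D2:**
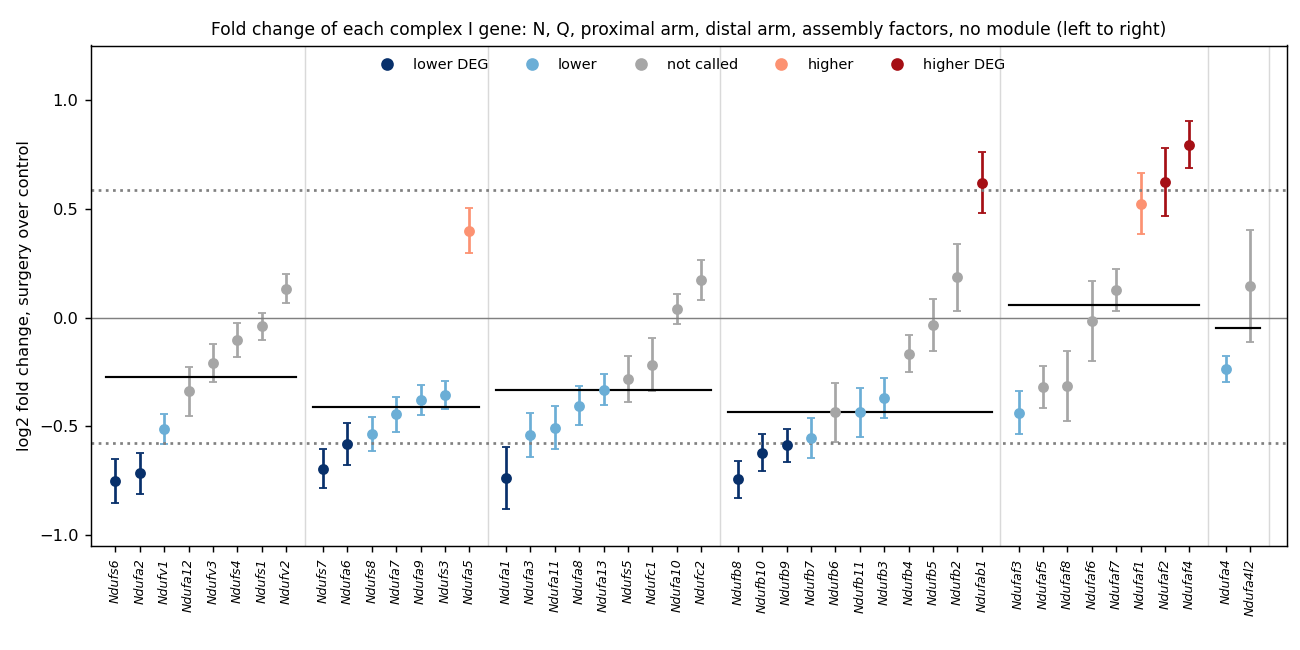
Log2 fold change of PND over control mice (y axis) with its SE for each named complex I gene (x axis), in the order N module, Q module, proximal arm, distal arm, assembly factors and genes outside the complex. Colors give the call, black lines the median over all genes of each group, and dotted lines the folds 0.67 and 1.5. The 4 structural modules have medians from -0.44 to -0.28, and the assembly factors a median of 0.06.

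Read by letter, the s genes showed the most even picture. All 8 of them had a negative log2 fold change, from -0.75 for Ndufs6 to -0.04 for Ndufs1, both PND mice lay below both control mice in each, and 5 passed the test. Among the a genes 10 of 15 were lower and 2 were higher, with a median of -0.38, and among the b genes 6 of 10 were lower and none was higher, with a median of -0.44. Of the 3 v genes 1 was lower, and of the 2 c genes none was. Of all genes, 12.8% were lower and 13.1% higher, and 1.73% were lower with the length and GC offsets. Both PND mice lay below both control mice in 32.2% of all genes. The 7 core subunits encoded in the nucleus had a median of -0.36 with 5 lower, and the 29 accessory subunits a median of -0.38 with 16 lower and 2 higher. With the length and GC offsets none of the 7 core subunits was called, with a median of -0.28, and the lower genes were 1 of the s genes, 5 of the a genes, 4 of the b genes and 9 of the accessory subunits. The letter groups and the modules share genes, and no test was made between them.

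A pair of genes carry an Nduf symbol without belonging to complex I. Ndufa4, now counted as a subunit of complex IV, had 152.7 and 155.6 CPM in the control mice and 133.6 and 128.0 CPM in the PND mice (log2 fold change -0.24 ± 0.061 SE, edgeR adjusted p = 0.033). Its paralog Ndufa4l2, known as a hypoxia-responsive gene, was low in every mouse, with 2.55 and 2.46 CPM in the control mice and 2.57 and 2.96 CPM in the PND mice, and it did not pass the test (edgeR adjusted p = 0.72).

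Among the 8 assembly factors, 1 was lower and 3 were higher, against 12.8% and 13.1% of all genes, and their median log2 fold change was 0.06. The 38 genes of the letters held 22 lower and 2 higher genes with a median of -0.36, and the difference between the groups was not tested. The median of the factors was -0.078 with the length and GC offsets, when only Ndufaf5 was called, as lower, and it was -0.019 without the second control mouse and -0.049 without the first PND mouse. Ndufaf4, which takes part in early assembly of the Q module (ENSMUSG00000028261, chr4:24898083-24905001, plus strand), had 19.3 and 16.8 CPM in the control mice and 31.5 and 31.1 CPM in the PND mice. Its log2 fold change of 0.79 ± 0.11 SE was the highest of all 46 genes (edgeR adjusted p = 0.0058), but with the length and GC offsets it was 0.23 (edgeR adjusted p = 0.28), below the 0.58 of Ndufaf2. Ndufaf1, which acts in the assembly of the proximal membrane arm, had 13.1 and 11.4 CPM in the control mice and 16.4 and 18.7 CPM in the PND mice (log2 fold change 0.52 ± 0.14 SE, edgeR adjusted p = 0.039).

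Ndufaf2, a late-acting factor and paralog of Ndufa12, had 6.50 and 7.06 CPM in the control mice and 10.6 and 10.3 CPM in the PND mice (log2 fold change 0.62 ± 0.16 SE, edgeR adjusted p = 0.032). This value is uncertain, since 63.2% of the 75 nt windows of Ndufaf2 occur in transcripts of other genes and 1955 nt overlap B230220B15Rik on the opposite strand. Ndufaf3, which works together with Ndufaf4 in the assembly of the Q module, was lower, with 29.8 and 32.0 CPM in the control mice and 23.5 and 22.2 CPM in the PND mice (log2 fold change -0.44 ± 0.098 SE, edgeR adjusted p = 0.021), and with the length and GC offsets it was -0.23 and not called (edgeR adjusted p = 0.24). The remaining factors did not pass the test. Ndufaf5 and Ndufaf7, which modify subunits of the Q module by hydroxylation and methylation, had log2 fold changes of -0.32 and 0.13, and Ndufaf6 and Ndufaf8 of -0.02 and -0.32.

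Assembly factors with other symbols were examined as a second list. Of 12 such genes 2 were lower, in a background of 12.8% of all genes, and none was higher, with a median log2 fold change of -0.04. Those called were Atp5sl, known also as Dmac2, with a log2 fold change of -0.40 ± 0.088 SE (edgeR adjusted p = 0.020), and Ecsit, which binds Ndufaf1, with -0.38 ± 0.10 SE (edgeR adjusted p = 0.039). Neither was called with the length and GC offsets (log2 fold changes -0.25 and -0.18, edgeR adjusted p 0.15 and 0.35), and no gene of the list was lower without the second control mouse or without the second PND mouse.

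Of the 7 subunits encoded by the mitochondrial genome, which form the core of the membrane arm, 6 were higher in PND mice and 5 were DEGs, but only mt-Nd6 was called with the length and GC offsets. All 7 had both PND mice above both control mice, against 33.2% of all genes, and their median log2 fold change was 1.033. Of all genes, 13.1% were higher and 6.75% were higher DEGs, and with the offsets 0.694% were higher. mt-Nd6, the subunit encoded on the light strand, had 144.4 and 109.5 CPM in the control mice and 483.5 and 576.9 CPM in the PND mice (log2 fold change 2.06 ± 0.15 SE, edgeR adjusted p = 0.0039). mt-Nd1, which joins the Q module to the membrane arm, had 2679 and 2254 CPM in the control mice and 5068 and 5026 CPM in the PND mice (log2 fold change 1.033 ± 0.093 SE, edgeR adjusted p = 0.0043). Since the use of strand in counting is not known, reads of mt-Nd6 and of the opposite-strand gene mt-Nd5 may be mixed. Their annotated exons overlap by 14 nt, and transcripts that run past the annotation were not examined. The study enriched mRNA with oligo(dT) beads, and the part of this selection in the mt-Nd values was not tested. mt-Nd2 had 1846 and 1462 CPM in the control mice and 3864 and 3621 CPM in the PND mice, with a log2 fold change of 1.18 ± 0.11 SE (edgeR adjusted p = 0.0043). Thus the transcripts of this enzyme from the 2 genomes were called mostly in opposite directions in the same libraries.

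The pump subunits mt-Nd4 and mt-Nd5 rose by smaller folds. mt-Nd4 had 2350 and 2103 CPM in the control mice and 3341 and 3173 CPM in the PND mice (log2 fold change 0.55 ± 0.076 SE, edgeR adjusted p = 0.0060). mt-Nd5 had 2909 and 2785 CPM in the control mice and 4120 and 4609 CPM in the PND mice (log2 fold change 0.62 ± 0.077 SE, edgeR adjusted p = 0.0050). mt-Nd3 and mt-Nd4l were counted at 0.821 to 4.68 CPM in the mice, and 97.8% and 98.7% of their windows occur in nuclear copies, so their log2 fold changes of 1.67 and 0.52 are uncertain. For mt-Nd4 this share is 61.5%, which makes its value uncertain too. Transcripts of the mitochondrial genome other than its rRNA took 2.53% to 2.82% of the counts in control mice and 4.45% to 4.49% in PND mice.

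Levels per kilobase of exon (RPKM) differed widely among the 46 genes. Ndufb9 had the highest mean level in control mice, with 146.2 RPKM, followed by Ndufa4 with 111.6 RPKM, Ndufb10 with 95.9 RPKM and Ndufa8 with 95.3 RPKM. The lowest were Ndufab1 with 1.93 RPKM, Ndufaf2 with 2.28 RPKM and Ndufa4l2 with 2.29 RPKM. In PND mice Ndufb9 stood at 97.3 RPKM and Ndufab1 at 2.96 RPKM. These levels divide by all exons annotated for a gene, and by the longest transcript alone the order changed. Ndufb9 was still highest with 214.1 RPKM, but Ndufb10 with 140.0 RPKM stood above Ndufa4 with 125.1 RPKM, and Ndufa4l2 with 2.52 RPKM, Ndufaf2 with 2.82 RPKM and Ndufb2 with 2.96 RPKM stood below Ndufab1 with 3.82 RPKM.

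Fold changes in these libraries varied with the GC content of the transcripts. Over all 17120 genes with a known sequence, Spearman's rho between the log2 fold change and the GC content of the longest transcript was -0.63, and over the 46 complex I genes it was -0.45. These are descriptions across genes of the same 4 libraries, and genes are not independent replicates. The complex I genes ran from 39.5% GC for Ndufaf4 to 60.7% GC for Ndufa4l2, and the gene that rose most was the one with the lowest GC content.

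Within each range of GC content the complex I genes had a lower median than all genes. Under 45% GC, the median log2 fold change was -0.10 for 9 complex I genes and 0.43 for all genes. From 45% to 50% it was -0.28 for 13 complex I genes and 0.09 for all genes. From 50% to 55% it was -0.38 for 16 complex I genes and -0.14 for all genes. At 55% and over it was -0.47 for 8 complex I genes and -0.31 for all genes, so this range had the smallest distance between them. Shorter transcripts also had lower fold changes, with a Spearman's rho of 0.48 between log2 fold change and the length of the longest transcript over the 46 genes.

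**Figure D3:**
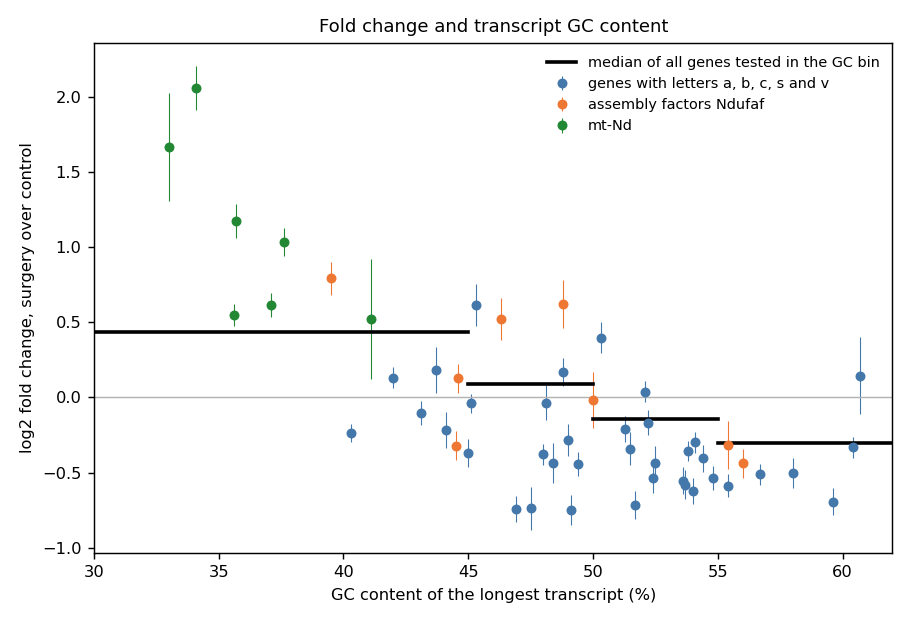
Log2 fold change of PND over control mice with its SE (y axis) against the GC content of the longest transcript in percent (x axis). Blue points are the 38 genes of the letters, orange points the 8 assembly factors, green points the mt-Nd genes, and black bars the median of all genes tested in each GC range. The medians of all genes step down from 0.43 to -0.31, and most blue points lie under the bar of their range.

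A second fit took up, as offsets, how counts in each mouse varied with the length and GC content of transcripts. Over the 46 genes, Spearman's rho of the log2 fold change in this fit was 0.15 with GC content. With the length of the longest transcript it was still 0.43. In this fit 11 complex I genes were lower (1.73% of all genes) and none was higher (0.694% of all genes). At an unadjusted p under 0.05, edgeR's test with these offsets gave 27 lower and 4 higher genes, against 14.6% and 7.89% of all genes. Of the lower genes 7 were DEGs, against 0.694% of all genes. Of these, 4 were among the lower DEGs without offsets (Ndufs6, Ndufb8, Ndufa1 and Ndufa2) and 3 were not (Ndufa4, Ndufb3 and Ndufaf5). Ndufb10 and Ndufb9 were still lower but short of the fold, with log2 fold changes of -0.50 and -0.43. The median log2 fold change of the 46 genes was -0.28. With these offsets Ndufs6 had a log2 fold change of -0.82 (edgeR adjusted p = 0.026), Ndufb8 of -0.88 (edgeR adjusted p = 0.023) and Ndufa1 of -0.93 (edgeR adjusted p = 0.040). Ndufs7 and Ndufa6, in contrast, were no longer called, with log2 fold changes of -0.42 and -0.45 and edgeR adjusted p of 0.057 and 0.059. The 38 genes of the letters kept a median of -0.36.

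The rises of the assembly factors did not pass the test with these offsets. Besides Ndufaf4, Ndufaf2 had a log2 fold change of 0.58 (edgeR adjusted p = 0.10) and Ndufaf1 of 0.34 (edgeR adjusted p = 0.21), and the median of the 8 factors turned to -0.08. Ndufaf5 was called lower instead, with a log2 fold change of -0.60 (edgeR adjusted p = 0.041). Ndufa5 and Ndufab1 were not called either, with 0.39 and 0.40. The sizes of single genes moved as well, since Ndufa4 went to -0.76 (edgeR adjusted p = 0.023), Ndufa13 to -0.03 (edgeR adjusted p = 0.85) and Ndufv2 to -0.28 (edgeR adjusted p = 0.098).

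Of the mitochondrially encoded subunits only mt-Nd6 remained called with the offsets, with a log2 fold change of 0.99 (edgeR adjusted p = 0.022). The median of the 7 genes was 0.29, and mt-Nd4 and mt-Nd5 turned to -0.34 and -0.14 without passing the test. mt-Nd1, mt-Nd2 and mt-Nd3 stayed positive, with 0.30, 0.29 and 0.47, and did not pass the test either.

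**Figure D4:**
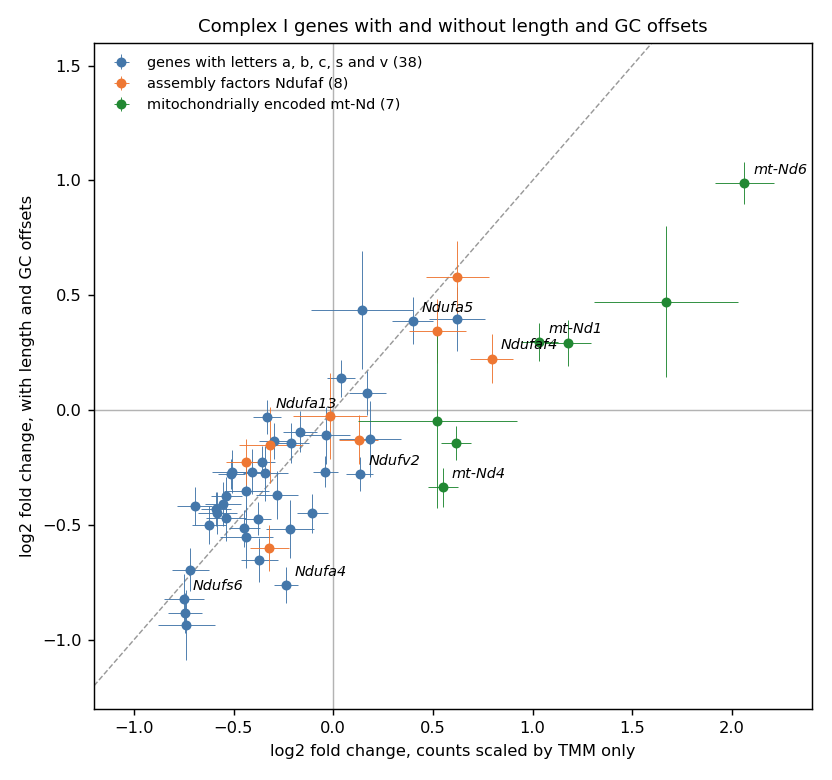
Log2 fold change of PND over control mice with TMM scaling alone (x axis) and with length and GC offsets (y axis), with the SE of each, for the 38 genes of the letters (blue), the 8 assembly factors (orange) and the 7 mt-Nd genes (green). Points on the dashed line have the same value in both. Ndufs6 stays near the line at -0.75 and -0.82, whereas Ndufaf4 and the mt-Nd genes lie under it.

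The promoters were examined for the letters of factors known to act on respiratory genes. RefSeq windows of 300 bases (250 before and 50 after the start site, GRCm38.p6) were found for 40 of the 46 genes. Both strands were searched, and a match is only a match of letters. The NRF-1 letters GCGCATGCG occurred in 4 of the 40 (10%) and in 1.95% of the windows of 27025 genes, in Ndufa11, Ndufa8, Ndufaf4 and Ndufaf5. The YY1 letters AAGATGGCG occurred in 6 (15%) and in 1.64% of all genes, the ETS/GABP letters CCGGAAG in 6 (15%) and in 9.93%, and the ERR letters TCAAGGTCA in none and in 0.466%. The windows of the complex I genes were richer in GC than those of all genes, with medians of 59.3% and 52.7%, and the part of this in the shares was not tested.

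The genes with the NRF-1 letters are shown because their calls differed. With TMM scaling alone Ndufa11 and Ndufa8 were lower, Ndufaf4 was higher and Ndufaf5 was not called. With the length and GC offsets only Ndufaf5 was called, as lower, and Ndufa11, Ndufa8 and Ndufaf4 had log2 fold changes of -0.27, -0.27 and 0.23. For Ndufa11 (chr17:56717642-56717761, plus strand) and Ndufaf4 (chr4:24897963-24898082, plus strand) the last 120 bases before the start site are given, and for Ndufa8 (chr2:36049328-36049357, minus strand) and Ndufaf5 (chr2:140170652-140170681, plus strand) 30 bases around the match, all 5′ to 3′ on the strand of the gene with the matched letters in capitals.
Ndufa11: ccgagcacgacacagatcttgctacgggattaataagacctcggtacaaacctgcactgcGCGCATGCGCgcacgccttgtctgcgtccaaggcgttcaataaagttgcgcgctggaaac
Ndufaf4: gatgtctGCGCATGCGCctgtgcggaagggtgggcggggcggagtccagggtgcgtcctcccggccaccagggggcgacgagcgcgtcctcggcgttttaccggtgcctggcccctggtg
Ndufa8: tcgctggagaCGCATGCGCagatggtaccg
Ndufaf5: agtcccgttgGCGCATGCGCctaatagaaa
In Ndufa11, Ndufaf4 and Ndufaf5 the letters match on both strands at once, since the run in capitals reads the same on either strand, and each gene was counted once.

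The YY1 letters stood on the strand of the gene and 10 to 35 bases after the RefSeq start site in all 6 genes. They are shown because they include both s genes with the largest falls with TMM scaling alone, Ndufs6 (chr13:73328433-73328462, minus strand) and Ndufs7 (chr10:80249463-80249492, plus strand), as well as Ndufa9 (chr6:126849096-126849125, minus strand), which was lower, and Ndufs4 (chr13:114388045-114388074, minus strand), Ndufc1 (chr3:51408914-51408943, minus strand) and Ndufaf8 (chr11:120098934-120098963, plus strand), which did not pass the test. With the length and GC offsets Ndufs4, at -0.45, lay below Ndufs7, at -0.42, and neither was called. Each line gives 30 bases around the match, 5′ to 3′, with the matched letters in capitals.
Ndufs6: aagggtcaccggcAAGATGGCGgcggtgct
Ndufs7: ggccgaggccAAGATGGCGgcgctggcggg
Ndufa9: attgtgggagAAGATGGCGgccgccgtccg
Ndufs4: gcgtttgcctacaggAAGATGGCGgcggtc
Ndufc1: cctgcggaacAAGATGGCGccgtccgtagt
Ndufaf8: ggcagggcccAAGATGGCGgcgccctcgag
Their log2 fold changes ran from -0.75 for Ndufs6 to -0.10 for Ndufs4, and all 6 were negative, as were 35 of all 46 genes. With 4 and 6 genes, these windows are descriptions only.

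The transcripts of known regulators of these genes were listed beside them. Of 9 regulators 1 was lower and 3 were higher, against 12.8% and 13.1% of all genes. Gabpa, the DNA-binding subunit of the factor NRF-2, had a log2 fold change of 0.93 ± 0.12 SE (edgeR adjusted p = 0.0054) and Ppargc1a, which encodes the coactivator PGC-1α, of 0.52 ± 0.088 SE (edgeR adjusted p = 0.0094). Esrra, an orphan nuclear receptor that works with PGC-1α, was lower, with -0.57 ± 0.10 SE (edgeR adjusted p = 0.010). Nrf1, which encodes NRF-1 and was added after its values were seen, had 26.1 and 25.1 CPM in the control mice and 20.8 and 20.1 CPM in the PND mice, just short of the threshold (log2 fold change -0.33 ± 0.099 SE, edgeR adjusted p = 0.055). With the length and GC offsets none of the 9 was called, and the log2 fold changes were 0.48 for Gabpa, 0.08 for Ppargc1a, -0.54 for Esrra and -0.55 for Nrf1.

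The nuclear genes of the other complexes give the setting for complex I. Of the genes examined, 2 of 4 were lower in complex II, 5 of 9 in complex III, 8 of 10 in complex IV and 11 of 16 in complex V, and 1 gene of complex V was higher. Of all genes tested, 12.8% were lower and 13.1% higher. The higher gene was Atp5f1 (log2 fold change 0.24 ± 0.070 SE, edgeR adjusted p = 0.049). With the length and GC offsets its log2 fold change was -0.52. Its call was also lost with DESeq2 size factors, with the DESeq2 test and with no filter on low counts. In complex V 6 were lower without the second control mouse and 7 without the second PND mouse, the higher call was lost without either control mouse or the first PND mouse, and in complex II 1 was lower without the second control mouse. The median log2 fold changes of the lists were -0.23, -0.40, -0.55 and -0.39. With the offsets they were -0.27, -0.34, -0.50 and -0.43, so the sign was kept in each, and the lower genes were then 2 in complex II, 2 in complex III, 7 in complex IV and 5 in complex V, with none higher. Of all genes, 1.73% were lower and 0.694% higher in that fit. The median of all 46 Nduf genes, -0.33, lies between those of complex II and complex V. It includes the assembly factors, whereas the other lists hold subunits only. The 38 genes of the letters, Ndufa4 and Ndufa4l2 among them, had a median of -0.36. These lists were not tested against each other.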

How the data were processed

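RNA of the hippocampus of 4 mice was enriched for mRNA with oligo(dT) beads and sequenced by the authors as 150 nt reads. Bowtie2 2.2.3, HISAT2 2.1.0, TopHat2 and HTSeq 0.6.0 are listed with the mm10 genome in the submitters' processing notes, and the use of strand is not given in the sources used here. The deposited values are raw counts of reads per gene. Beside them stand the authors' own fold changes and p-values, which were not used.

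Mice were grouped by the labels (sham or surgery). Nothing in them says more of how the mice relate, so p-values rest on the spread between these 2 mice per group. For each gene, edgeR takes this spread partly from other genes of similar level. Counts were filtered with edgeR 4.0.16 (filterByExpr, minimum count 10), scaled by TMM and tested by the quasi-likelihood F test in R 4.3.3 with limma 3.58.1, with group as the only term and Benjamini-Hochberg adjustment over the 17144 genes tested. The script was tested on simulated data. A gene was called at an adjusted p under 0.05, and DEGs also needed the study's folds. The members and lists were chosen with earlier results of these data known, and the members are named apart from 1 gene that enters the counts and medians but is not reported here by name. Full values are given for DEGs among them, for the extremes of each letter, for other core subunits and for mt-Nd genes above 5 CPM. Lengths, GC contents, overlaps and shared 75 nt windows came from GENCODE M21, which holds 29238 of the 29300 identifiers, and coordinates from the deposited table. Of the 46 members 22 overlap another gene's exons or share more than 10% of their windows. Offsets for length and GC were fitted with mgcv 1.9.3 (basis size 8) for 17120 genes. Levels used a prior count of 0.1 where logs were taken. Alternatives were other scalings, no filter, DESeq2 1.42.0, a replicate block and each mouse left out. Counts of replicate mice differed by more than sampling noise (chi-square per degree of freedom 13.4 in control and 8.45 in PND mice).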

Additional observations from a re-analysis of the deposited data

How the results depend on the processing

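With 2 mice per group, leaving out a mouse leaves a lone library whose spread is assumed to be that of the other group, and low-count genes such as Ndufaf6 and Ndufa4l2 are measured least precisely. Against 23 lower, 5 higher, 8 lower DEGs and 3 higher DEGs, the length and GC offsets gave 11 lower and 0 higher genes with 0 higher DEGs, and leaving out the 22 genes with overlap or shared sequence gave 11, 3, 4 and 1. At an unadjusted p under 0.05, edgeR gave 4 higher genes with the offsets and 5 without them. No filter on low counts gave 1 higher gene and 1 higher DEG, the DESeq2 test gave 2 higher genes, and scaling by library totals only gave 5 lower DEGs. Leaving out each mouse in turn gave 16 to 25 lower genes, 1 to 3 higher genes, 4 to 13 lower DEGs, 1 to 3 higher DEGs and a median of the 46 genes from -0.39 to -0.26.

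Mice of the 2 groups share only a number (correlation of same-numbered deviations 0.22), so pairing is not given by the design. The replicate block alone gave 25 lower genes, 5 higher genes, 7 lower DEGs and 3 higher DEGs. The replicate block with length and GC offsets gave 26 lower genes, 1 higher gene and 0 higher DEGs. In that fit 3 mt-Nd genes were higher and 1, mt-Nd4, was lower (edgeR adjusted p = 0.0080), and 2 regulators were lower and 1 was higher. The block alone changed no call from lower to higher or from higher to lower. The shares of all genes called are not given for these fits, nor for those with another scaling, test or filter or a mouse left out. Counts from these fits therefore cannot be set against a background.

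These values changed sign. With the offsets, and with the replicate block and the offsets, the log2 fold changes were -0.078 and -0.079 for the median of the Ndufaf genes, -0.13 and -0.13 for Ndufaf7, -0.13 and -0.13 for Ndufb2, -0.28 and -0.28 for Ndufv2, -0.34 and -0.34 for mt-Nd4, -0.14 and -0.14 for mt-Nd5, and -0.047 and -0.036 for mt-Nd4l. With library totals only they were 0.024 for the median of letter c, 0.007 for that of the other assembly factors, 0.031 for Ndufaf6, 0.013 for Ndufb5 and 0.008 for Ndufs1. Leaving out each mouse in turn, they ran from -0.049 to 0.147 for the median of the Ndufaf genes, from -0.063 to 0.009 for that of letter c, from -0.042 to 0.109 for Ndufa10, from -0.125 to 0.080 for Ndufaf6 and from -0.190 to 0.101 for Ndufb5. Of the single genes named here only mt-Nd4 and mt-Nd5 had passed the test. The causes were not tested.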
